A study of Mus musculus with 12 samples.

Results

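Matn4, Evpl, Mab21l3 and Rasl11a are 4 mouse genes described here as genes switched on by etoposide, a drug that traps topoisomerase II on DNA and so breaks both strands. They were selected on their counts in these libraries, as genes near-silent in untreated Null fibroblasts and strongly raised by etoposide, and they are 4 of the 24421 genes in the count table. The counts of the Null libraries therefore chose them, and their values in those libraries are given as a description without a test. The rule names no genotype for the rise, so the libraries of the other genotype are not fully independent of the choice either.

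The study measured gene expression by RNA-seq in mouse embryonic fibroblasts (MEFs), which are connective tissue cells taken from embryos and kept here as lines immortalized with SV40, which can itself affect p53. It asked how cells without the transcription factors TFEB and TFE3 respond to DNA damage. The labels name the control genotype Null and the paper of the study names its control line WT. They were taken here as the same line with Tfeb and Tfe3 unedited, which the labels do not state. In the TFEB/TFE3 DKO MEFs CRISPR editing had inactivated both. Each genotype was represented by 1 line, so that a difference between the genotypes cannot be told apart from a difference between the lines. The 4 groups of 3 libraries each were untreated Null MEFs, Null MEFs kept for 8 h in 100 µM etoposide, untreated DKO MEFs, and DKO MEFs kept for 8 h in 100 µM etoposide. The sample labels call the controls untreated, while the methods of the study describe DMSO, the solvent of the drug. The libraries held between 45577023 and 104120871 counts on genes.

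Matrilin-4, encoded by Matn4, belongs to a family of extracellular adaptor proteins that link collagen fibrils and proteoglycans in cartilage and other matrices. Envoplakin, encoded by Evpl, is a plakin that ties keratin filaments to desmosomes and is cross-linked into the cornified envelope of the epidermis together with periplakin. Mab21l3 is a little-studied relative of the MAB21 developmental proteins and of the DNA sensor cGAS, and Rasl11a encodes a RAS-like small GTPase that has been tied to ribosomal RNA synthesis by RNA polymerase I. DNA breaks stabilize p53, which raises the transcription of genes for cell cycle arrest, DNA repair and cell death, while TFEB and TFE3 bind E-box motifs at genes of lysosomes and autophagy.

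The labels were checked against the transcripts of both edited genes. Levels in CPM (counts scaled by library size and by TMM factors) of Tfeb were 40.1 ± 1.78 (SD, n = 3) in untreated Null MEFs and 5.12 ± 0.835 in the DKO controls, and the log2 fold change was -2.94 ± 0.092 (SE, adjusted p = 1.05e-14). Where no alternative is named, p-values here come from the quasi-likelihood test of edgeR and are adjusted over the 15220 genes tested by the Benjamini-Hochberg method. Ranges of adjusted p span alternatives with other tests, filters and numbers of genes. Tfe3 stood at 113 ± 2.83 CPM in the Null controls and 92.7 ± 1.61 CPM in the DKO controls, a log2 fold change of -0.29 ± 0.042 (adjusted p = 8.67e-06). Tfeb transcripts were thus far lower in each DKO library, whereas most of the Tfe3 transcript was still present. An edited gene can still be transcribed, and protein was not measured. With etoposide, Tfeb reached 10.7 ± 0.678 CPM in Null MEFs and 1.91 ± 0.297 CPM in DKO MEFs, and Tfe3 stood at 68.7 ± 0.778 and 68.5 ± 4.37 CPM.

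Matn4 lies on the minus strand of chromosome 2 (chr2:164389393-164405160, GRCm38), with 12 exon blocks of 5174 bases in all. Its counts in untreated Null MEFs were 26, 18 and 8 reads, or 0.320, 0.277 and 0.124 CPM, and in etoposide-treated Null MEFs 5817, 5242 and 4620 reads, or 71.0, 63.5 and 67.4 CPM. In DKO MEFs it was at 11, 3 and 6 reads without the drug (0.166, 0.0326 and 0.101 CPM) and at 157, 165 and 241 reads with it (3.18, 2.25 and 2.39 CPM). The 3 treated Null libraries were far above all others and the 3 treated DKO libraries came next, apart from every untreated library, while the untreated groups of both genotypes overlapped near 0. The group means were 0.240 ± 0.103 CPM in untreated and 67.3 ± 3.77 CPM in treated Null MEFs (SD, n = 3), a ratio of 280.4 and a log2 fold change of 8.09 ± 0.15 (SE), which the choice of the gene fixes. In DKO MEFs, the means were 0.0996 ± 0.0664 and 2.61 ± 0.498 CPM, a log2 fold change of 4.76 ± 0.31 (adjusted p = 1.83e-10, edgeR's quasi-likelihood test, higher in 3 of 3 treated libraries). After etoposide the DKO level was 3.88% of the Null level.

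Evpl lies on the minus strand of chromosome 11 (chr11:116220559-116238077), with 22 exon blocks of 6384 bases. Untreated Null libraries held 32, 19 and 14 reads of it (0.393, 0.292 and 0.216 CPM), and treated Null libraries 7251, 6422 and 5619 reads (88.5, 77.8 and 82.0 CPM). In untreated DKO MEFs there were 27, 31 and 15 reads (0.406, 0.337 and 0.252 CPM), and in treated DKO MEFs 121, 106 and 221 reads (2.45, 1.45 and 2.19 CPM). Without the drug the genotypes overlapped, with means of 0.300 ± 0.0888 CPM in Null and 0.332 ± 0.0774 CPM in DKO MEFs, and with it they stood apart, at 82.7 ± 5.42 and 2.03 ± 0.520 CPM. The log2 fold change with etoposide was 8.06 ± 0.14 in Null MEFs, as a description, and 2.58 ± 0.24 in DKO MEFs (adjusted p = 3.94e-08, higher in 3 of 3 treated libraries). The treated DKO level was 2.45% of the treated Null level, the smallest share among the 4 genes.

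Mab21l3 lies on the minus strand of chromosome 3 (chr3:101813076-101848959), with 8 exon blocks of 3610 bases. It was at 50, 24 and 16 reads in untreated Null libraries (0.615, 0.369 and 0.247 CPM) and at 6545, 6938 and 5798 reads in treated ones (79.9, 84.0 and 84.6 CPM). Untreated DKO libraries held 11, 13 and 2 reads (0.166, 0.141 and 0.0336 CPM), and treated DKO libraries 266, 352 and 430 reads (5.38, 4.81 and 4.27 CPM). All 4 groups were apart from each other, in the order treated Null, treated DKO, untreated Null and untreated DKO, although the untreated groups rest on few reads. Means rose from 0.410 ± 0.187 to 82.8 ± 2.55 CPM in Null MEFs (log2 fold change 7.60 ± 0.13, a description) and from 0.113 ± 0.0702 to 4.82 ± 0.557 CPM in DKO MEFs (log2 fold change 5.29 ± 0.24, adjusted p = 1.84e-12). Of the 4 genes it had the largest rise in DKO MEFs, and its treated DKO level was 5.82% of the treated Null level.

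Rasl11a lies on the plus strand of chromosome 5 (chr5:146845071-146847726), with 4 exon blocks of 1201 bases. In untreated Null MEFs it was at 161, 130 and 167 reads (1.98, 2.00 and 2.58 CPM), and in treated Null MEFs at 3615, 3666 and 3420 reads (44.1, 44.4 and 49.9 CPM). In DKO MEFs it was at 1509, 1947 and 1167 reads without the drug (22.7, 21.2 and 19.6 CPM) and at 1229, 1806 and 2570 reads with it (24.9, 24.7 and 25.5 CPM). None of the 4 groups overlapped, and the untreated Null group was the low one: untreated DKO MEFs already held 9.68 times its level. The gene does not meet the description near-silent in untreated Null MEFs in the way the other 3 do, since its mean there was 2.19 ± 0.341 CPM against 0.240 to 0.410 CPM for Matn4, Evpl and Mab21l3. Etoposide raised it to 46.1 ± 3.25 CPM in Null MEFs (log2 fold change 4.41 ± 0.09, a description) and from 21.2 ± 1.56 to 25.0 ± 0.446 CPM in DKO MEFs (log2 fold change 0.24 ± 0.068, adjusted p = 0.00401, higher in 3 of 3 treated libraries).

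**Figure D1:**
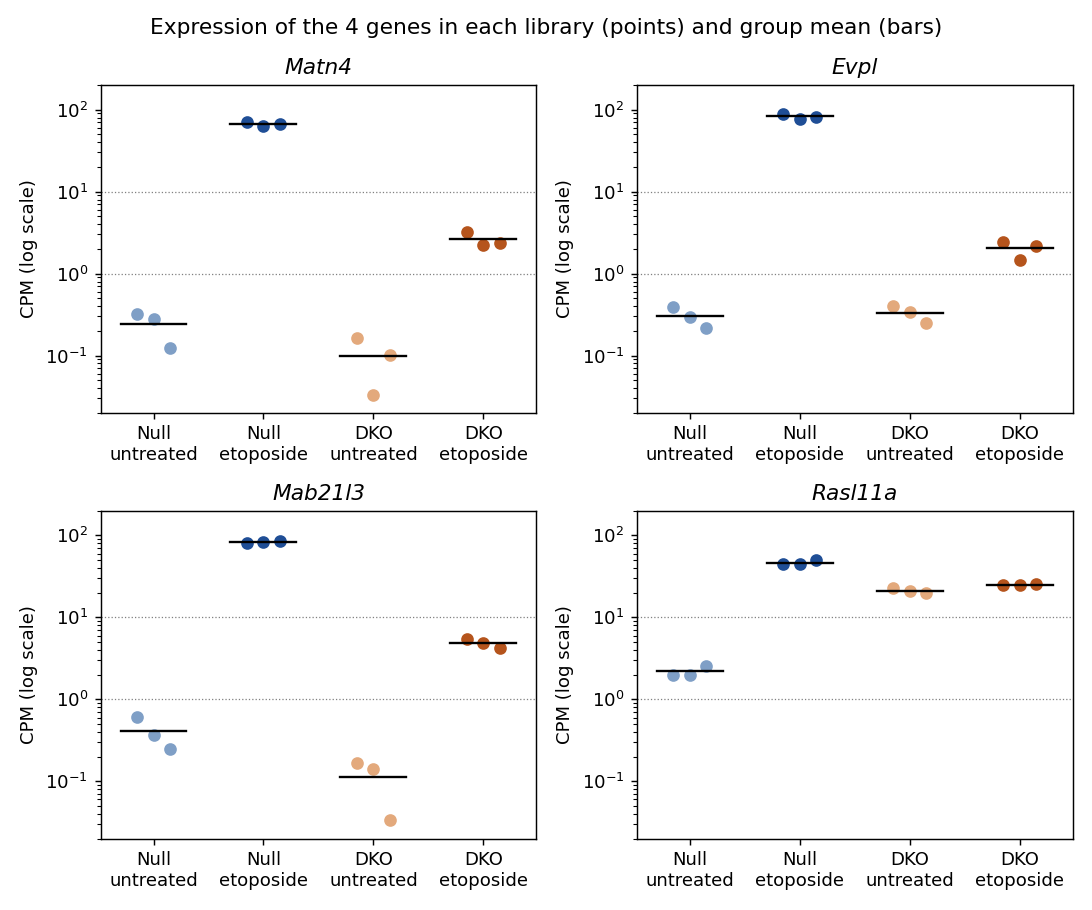
CPM (log axis) of Matn4, Evpl, Mab21l3 and Rasl11a in each of the 12 libraries (points) with group means (bars), with dotted lines at 1 and 10 CPM. In 3 genes the treated Null libraries lie far above the other groups, and in Rasl11a the untreated DKO libraries (19.6 to 22.7 CPM) already lie close to the treated DKO libraries (24.7 to 25.5 CPM).

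In DKO MEFs, all 4 genes were higher with etoposide past the adjusted threshold of 0.05, where 43.7% of the 15220 genes tested were higher and 75.1% changed in either direction. Over all genes tested, the median log2 fold change in that comparison was 0.14. Relative to this median Matn4 rose by 4.63, Evpl by 2.44, Mab21l3 by 5.15 and Rasl11a by 0.11, so that the Rasl11a value was close to that of a typical gene. Scaling by library size alone in place of TMM moved the median of all genes by 0.27 in DKO MEFs and by 0.17 in Null MEFs, and the log2 fold change of Rasl11a in DKO MEFs to 0.52 while its distance from the median stayed at 0.11. It also moved the counts of higher and lower genes in DKO MEFs from 6645 and 4790 to 9316 and 3004. In the order of log2 fold changes in DKO MEFs, from the largest, Mab21l3 took place 586, Matn4 place 755, Evpl place 1606 and Rasl11a place 6572 of 15220. These are bulk samples, in which fewer cells expressing a gene and less RNA per cell cannot be told apart.

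Set side by side as a description, the difference between the genotypes had a different form in Rasl11a than in the other 3 genes. After etoposide, DKO MEFs were below Null MEFs by log2 fold changes of -4.73 ± 0.10 for Matn4, -5.37 ± 0.11 for Evpl and -4.13 ± 0.089 for Mab21l3, but by -0.88 ± 0.065 for Rasl11a, whose treated DKO level was 54.2% of the treated Null level. Without the drug, the values were -1.41 ± 0.55 for Matn4, 0.12 ± 0.38 for Evpl, -1.82 ± 0.43 for Mab21l3 and 3.28 ± 0.095 for Rasl11a. Leaving out 1 library in turn gave -2.03 (without replicate 1 of the untreated DKO libraries) to -0.86 (without replicate 2) for Matn4 and -0.06 to 0.39 for Evpl, whose sign was thus not settled. The change with etoposide in DKO minus that in Null MEFs was -3.32 ± 0.72 for Matn4, -5.49 ± 0.46 for Evpl, -2.31 ± 0.57 for Mab21l3 and -4.16 ± 0.12 for Rasl11a, on the log2 scale. For Rasl11a this large value comes with a high untreated DKO level, and for Evpl with a low treated DKO level. These comparisons share the Null libraries that chose the genes, so they were not tested for them. Across all genes tested, 66.7% differed between the untreated genotypes (33.3% higher and 33.4% lower in DKO MEFs), 74.0% between the treated genotypes (37.5% higher and 36.6% lower), and 54.0% in their change with etoposide (29.6% higher and 24.4% lower). The Matn4 value rests on the 11, 3 and 6 reads of the untreated DKO libraries: it was -3.89 without replicate 2 of that group and -2.73 without replicate 1.

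Per kilobase of exon, levels can be compared between genes. After etoposide in Null MEFs Rasl11a was the most abundant at 38.4 CPM per kb, followed by Mab21l3 at 22.9 CPM per kb, and Matn4 and Evpl both at 13.0 CPM per kb, which did not differ beyond their spread. In treated DKO MEFs the order was Rasl11a at 20.8, Mab21l3 at 1.34, Matn4 at 0.504 and Evpl at 0.318 CPM per kb. In untreated Null MEFs, Rasl11a stood at 1.82 CPM per kb and the other 3 genes between 0.0464 and 0.114 CPM per kb. Among the genes tested, the Null level of Matn4 in CPM rose from the percentile 16.0 to 77.2, of Evpl from 17.4 to 81.7, of Mab21l3 from 19.0 to 81.7 and of Rasl11a from 28.1 to 67.8. In untreated DKO MEFs Rasl11a was already at the percentile 50.2.

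Since the members rose together in Null MEFs, their promoters are shown, as far as RefSeq gives one. The entries hold 250 bases before and 50 bases after a transcript start on GRCm38.p6. There are 4 entries for 3 of the 4 genes, and Evpl has none. Matn4 has 2, at chr2:164405111-164405410 and chr2:164404769-164405068 on the minus strand, of which the former begins at the annotated 5′ end of the gene. The entry of Mab21l3 is at chr3:101836174-101836473 on the minus strand, inside the annotated span of the gene, and that of Rasl11a at chr5:146844821-146845120 on the plus strand. Sequences run 5′ to 3′, and the capital marks the first transcribed base.
Matn4, entry 1: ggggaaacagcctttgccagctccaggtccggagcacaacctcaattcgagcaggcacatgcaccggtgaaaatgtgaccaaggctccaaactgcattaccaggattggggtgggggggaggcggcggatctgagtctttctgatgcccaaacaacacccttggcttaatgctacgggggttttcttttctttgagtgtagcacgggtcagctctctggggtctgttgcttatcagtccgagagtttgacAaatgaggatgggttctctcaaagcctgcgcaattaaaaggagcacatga
Matn4, entry 2: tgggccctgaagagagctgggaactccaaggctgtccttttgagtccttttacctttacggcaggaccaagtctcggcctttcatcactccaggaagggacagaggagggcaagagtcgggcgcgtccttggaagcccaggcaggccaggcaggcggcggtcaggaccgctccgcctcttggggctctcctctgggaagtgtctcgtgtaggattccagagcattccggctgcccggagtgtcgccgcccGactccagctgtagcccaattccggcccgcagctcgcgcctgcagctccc
Mab21l3: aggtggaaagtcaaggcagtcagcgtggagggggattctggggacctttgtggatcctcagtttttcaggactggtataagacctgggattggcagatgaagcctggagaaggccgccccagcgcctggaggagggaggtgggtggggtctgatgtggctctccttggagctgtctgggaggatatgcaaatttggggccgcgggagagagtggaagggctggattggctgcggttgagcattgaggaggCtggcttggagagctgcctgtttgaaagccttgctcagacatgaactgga
Rasl11a: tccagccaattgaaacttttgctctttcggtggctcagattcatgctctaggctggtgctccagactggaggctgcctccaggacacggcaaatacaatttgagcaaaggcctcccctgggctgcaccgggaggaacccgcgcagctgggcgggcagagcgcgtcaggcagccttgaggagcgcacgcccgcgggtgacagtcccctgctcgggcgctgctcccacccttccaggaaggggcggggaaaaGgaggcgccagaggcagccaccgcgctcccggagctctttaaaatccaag

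These 4 sequences were searched on both strands for the E-box CACGTG, the AP-1 motif TGANTCA, the TATA motif TATAAA and the p53 half-site. None of the 4 motifs was found in any of them. Among 32851 RefSeq promoters of the same length, 7.15% hold the E-box, 7.81% the AP-1 motif, 13.6% the TATA motif and 8.36% the p53 half-site. The absence of these letters from a window of 300 bases says nothing about factors that bind elsewhere. The share of G and C was 52.7% and 64.0% in the Matn4 entries, 57.7% in Mab21l3 and 63.7% in Rasl11a.

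The genes around the 4 loci were read out as well, as the 2 nearest annotated genes on each side and any gene with overlapping exons. Of 17 such neighbours 14 were in the count table and 12 passed the filter on low counts. With etoposide in Null MEFs 5 of these 12 were higher and 4 lower (42.3% and 37.2% of all genes, 79.4% in either direction), and in DKO MEFs 3 were higher and 2 lower (43.7% and 31.5% of all genes). With library size alone 5 were higher and 3 lower in Null and 8 higher and 2 lower in DKO MEFs. Leaving aside Rbpjl and Nhlh2, whose untreated reads were near 0, none of the tested neighbours reached a log2 fold change in Null MEFs as large as that of the gene it flanks.

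Next to Matn4, the gene of the secreted protease inhibitor Slpi lies 298 bases away. It was at 1.06 ± 0.00443 CPM in untreated and 0.921 ± 0.198 CPM in treated Null MEFs (adjusted p = 0.425), and fell from 7.22 ± 0.880 to 3.58 ± 0.692 CPM in DKO MEFs (log2 fold change -1.05 ± 0.14, adjusted p = 2.07e-06). Sdc4, which encodes the cell surface proteoglycan syndecan-4, was lower with etoposide in both genotypes, by a log2 fold change of -0.63 ± 0.033 in Null (adjusted p = 7.69e-12) and -1.11 ± 0.033 in DKO MEFs (adjusted p = 5.54e-15). Sys1 was lower in Null MEFs (log2 fold change -0.30 ± 0.047, adjusted p = 1.52e-05), and its value in DKO MEFs, -0.08 (adjusted p = 0.132), was a rise past the threshold with scaling by library size alone (0.19, adjusted p = 0.000806). It was a fall past it with no filter (-0.12, adjusted p = 0.0417), with the 6 libraries alone (-0.11, adjusted p = 0.0388) and without replicate 3 of the treated DKO libraries (-0.13, adjusted p = 0.0264), in a range of 0.000806 to 0.375 over its alternatives. Rbpjl, a paralog of the Notch effector Rbpj on the opposite strand, shares 149 exon bases with Matn4. It stood at 0.0205 CPM in untreated and 0.322 ± 0.139 CPM in treated Null MEFs, with at most 37 reads in a library. These few reads were called higher in Null MEFs (adjusted p = 0.000174). In DKO MEFs the adjusted p was 0.119, or 0.0426 with DESeq2. How the counting treated the strand and shared bases is not stated, and at 0.322 CPM the reads given to Rbpjl were few beside the 67.3 CPM of Matn4. The microRNA Mir7678 was at 2 reads at most.

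At the Evpl locus none of the tested neighbours rose past the threshold with TMM scaling, but Ten1 and Srp68 did so in DKO MEFs with library size alone. The pseudogene Cdk3-ps, 272 bases away, was at 0.461 ± 0.149 CPM in untreated and 0.465 ± 0.0798 CPM in treated Null MEFs. Ten1, a subunit of the telomere-capping CST complex, was lower in treated Null MEFs (log2 fold change -0.47 ± 0.067, adjusted p = 5.84e-06), and its value of -0.02 in DKO MEFs (adjusted p = 0.84) turned to 0.26 with library size alone (adjusted p = 0.0042, in a range of 0.0042 to 0.845). Srp68, a subunit of the signal recognition particle, had a log2 fold change of -0.18 ± 0.064 in Null MEFs (adjusted p = 0.0152), a call that was lost under 4 of 17 alternatives (adjusted p from 0.00179 to 0.848), and of -0.09 in DKO MEFs, which turned to 0.18 with library size alone (adjusted p = 0.0179). Its DKO value was a fall past the threshold without replicate 3 of the untreated (-0.15, adjusted p = 0.049) and without replicate 2 of the treated DKO libraries (-0.19, adjusted p = 0.0143, in a range of 0.0143 to 0.715). Galr2 did not pass the filter, with at most 16 reads in a library.

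Beside Mab21l3, Slc22a15, a gene of the organic cation and zwitterion transporter family 6817 bases away, was between 5.2 and 5.85 CPM in the means of all 4 groups and past the threshold in neither genotype (adjusted p = 0.251 in Null and 0.262 in DKO MEFs). With library size alone it was higher in treated DKO MEFs (0.41, adjusted p = 0.00246, in a range of 0.00246 to 0.88). Nhlh2 had no read in any untreated library and 0.0893 ± 0.0510 and 0.115 ± 0.0877 CPM in treated Null and DKO MEFs, with at most 17 reads in a library. These few reads were called higher in both genotypes (adjusted p = 0.0113 in Null and 0.00567 in DKO MEFs). The 2 long noncoding RNAs on the other side, Gm43135 and Gm43134, are not in the count table.

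Around Rasl11a each tested neighbour rose in Null MEFs. Gtf3a, which encodes the RNA polymerase III factor TFIIIA and lies 100931 bases away, went from 45.0 ± 1.67 to 131 ± 6.59 CPM in Null MEFs (log2 fold change 1.55 ± 0.042, adjusted p = 9.89e-16) and from 53.6 ± 0.488 to 78.0 ± 2.17 CPM in DKO MEFs (0.54 ± 0.042, adjusted p = 2.62e-09). The mitochondrial translation factor gene Mtif3 rose by 0.45 ± 0.060 in Null (adjusted p = 2.53e-06) and by 0.26 ± 0.059 in DKO MEFs (adjusted p = 0.000784) on the log2 scale. Rpl21, a ribosomal protein gene 8039 bases away, rose by 0.34 ± 0.081 in Null MEFs (adjusted p = 0.000977), with 0.13 ± 0.081 in DKO MEFs (adjusted p = 0.17). The DKO rise was past the threshold with library size alone (0.40, adjusted p = 0.000293) and with the 6 libraries alone (0.10, adjusted p = 0.0443), in a range of 0.000293 to 0.421. None of these neighbours was raised in untreated DKO MEFs to the extent of Rasl11a, the largest difference there being 0.34 ± 0.061 for Mtif3. The small nucleolar RNA Gm23202 is not in the count table.

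**Figure D2:**
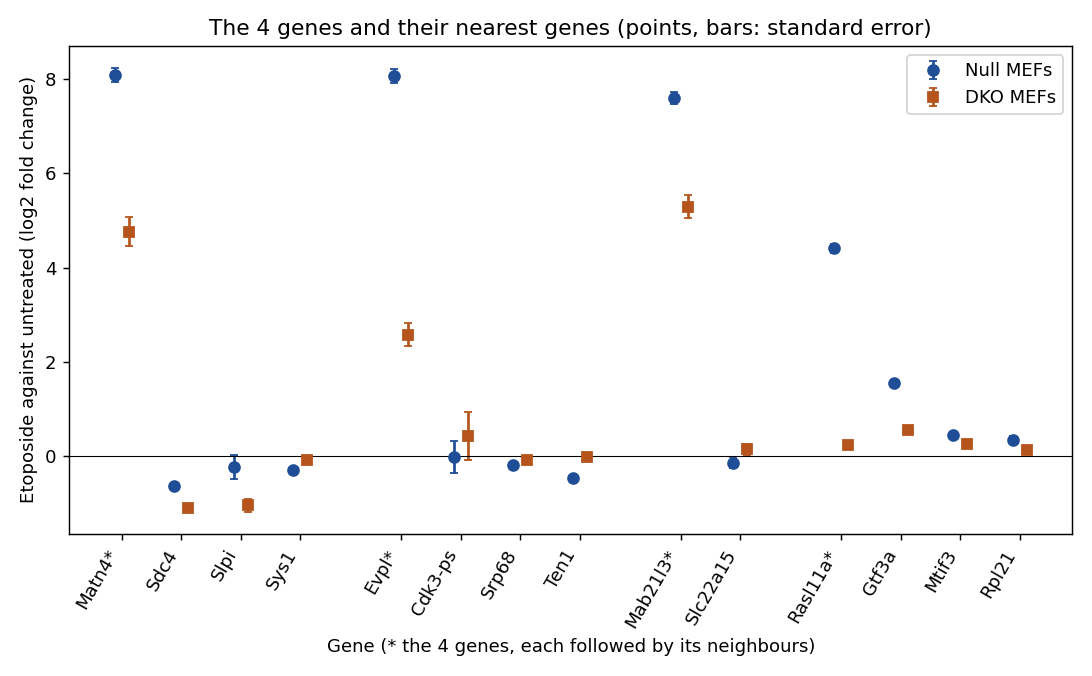
Log2 fold change with etoposide in Null (circles) and DKO MEFs (squares) for the 4 genes, marked with a star, each followed by its tested neighbours other than Rbpjl and Nhlh2, with bars for the standard error. Matn4, Evpl and Mab21l3 stand far above their neighbours, which lie between -1.11 and 0.43 (with scaling by library size alone the DKO values of Sys1, Ten1 and Srp68 lie above 0), and beside Rasl11a Gtf3a reached 1.55 in Null MEFs.

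Genes with a pattern like that of each member were found by the root mean square (RMS) difference of gene-centred log2 CPM over the 12 libraries, with a prior count of 2. Closest to Matn4 were Svop (RMS difference 0.474), Ces2e (0.482) and Kbtbd11 (0.542). For Evpl they were Glyat (0.396), Fam159b (0.414) and Chrm1 (0.499), and for Mab21l3 they were Grhl3 (0.498), Cnga3 (0.554) and Plch2 (0.566). Each of these 9 genes was at or below 0.293 CPM in both untreated groups, and their treated Null means ran from 4.60 CPM for Chrm1 to 39.5 CPM for Ces2e. Svop went from 0.137 to 25.4 CPM in Null and from 0.0734 to 1.36 CPM in DKO MEFs. Glyat, with 27.0 CPM in treated Null and 0.526 CPM in treated DKO MEFs, shared with Evpl a weak DKO rise. Closest to Rasl11a were Ip6k3 (0.371), Lrmp (0.414) and Pmaip1 (0.471). Pmaip1, which encodes the p53-induced cell death protein NOXA, was the only abundant gene among these, at 31.0 CPM in untreated Null, 281 CPM in treated Null, 218 CPM in untreated DKO and 219 CPM in treated DKO MEFs.

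Among the members themselves, Matn4 and Mab21l3 were the closest pair (RMS difference 0.624), followed by Matn4 and Evpl (0.821) and by Evpl and Mab21l3 (1.04). Rasl11a differed from each of the other 3 by 2.45 to 2.99, more than any of the other pairs. With a prior count of 0.5 in place of 2, all 3 genes closest to Matn4 were named again. Of the 3 genes, 2 were named again for Evpl and for Rasl11a and 1 for Mab21l3. With Pearson correlation as the measure, only 1 of the 3 genes closest to Matn4 was named again and none of those closest to the other 3 members. The names thus depend on the measure and on the prior count.

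To place the members among all genes with the same behaviour, a switch-on class was defined on Null MEFs by a mean below 1 CPM without and at least 10 CPM with etoposide. It held 76 genes, Matn4, Evpl and Mab21l3 among them, and not Rasl11a, whose untreated Null mean of 2.19 CPM lies above the limit. Just inside the lower limit were Upp1 at 0.969, Rgcc at 0.893 and Noxo1 at 0.883 CPM in untreated Null MEFs, and just outside Casz1 at 1.00, Trp53i11 at 1.01 and Cyp2u1 at 1.02 CPM. Just inside the upper limit were Hmha1 at 10.04, H19 at 10.06 and Gpr132 at 10.1 CPM in treated Null MEFs, and just outside Plekhg1, Tekt4 and Gnal, each at 9.90 CPM. The class depends on these limits, with 18 genes at 0.5 and 20 CPM and 251 genes at 2 and 5 CPM, and the same 3 members in each.

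By the Null rise, which defines the class and is a description, Slc29a4 (log2 fold change 9.05), 1700003M07Rik (at least 8.47), Fcgbp (at least 8.44), Galnt6 (8.45), Gna15 (8.41), Rab44 (8.41), Fam159b (8.25) and Grhl3 (8.24) were at the top. Fcgbp and 1700003M07Rik were at 3 reads or fewer in every untreated Null library, so their values are lower bounds (fitted values 9.50 and 8.78) and their order is open. Matn4 was 9th at 8.09, ahead of Sec14l5 at 8.07, Evpl was 11th and Mab21l3 was 21st of 76. Fcgbp encodes an IgG Fc-binding protein of mucus, Slc29a4 a monoamine transporter, Galnt6 an enzyme of mucin-type glycosylation, and Grhl3 a Grainyhead-like transcription factor of the epidermal barrier. The genes at the top were all less abundant than the members, with treated Null means of 10.2 CPM for Rab44 to 21.6 CPM for Gna15, where Matn4, Evpl and Mab21l3 reached 67.3, 82.7 and 82.8 CPM.

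The class was defined without the DKO libraries, and 71 of its 76 genes (93.4%, against 43.7% of all genes tested) were higher with etoposide in DKO MEFs. In untreated DKO MEFs 70 of them were below 1 CPM, with little room to be called lower, so both shares are a description. The median log2 fold change of the class in DKO MEFs was 3.85, or 3.84 when the 6 genes at 3 reads or fewer in every untreated DKO library are set at their lower bound, beside 0.14 for all genes, and in Null MEFs it was 6.34 beside 0.07. Fcgbp (6.30 ± 0.28, adjusted p = 1.02e-14), Grhl3 (6.18 ± 0.41, adjusted p = 1.98e-11), Sec14l5 (6.07 ± 0.33, adjusted p = 2.82e-12), and Robo3 (5.94 ± 0.37, adjusted p = 5.41e-11) had the largest DKO rises among genes with more reads than that. Kbtbd11 (adjusted p = 1.42e-08) was at 1 read at most in each untreated DKO library, so that its fitted value of 5.91 is no measured size and its rise is at least 3.96. By fitted values Mab21l3 was 16th, Matn4 25th and Evpl 54th, and with such genes at their bound 13th, 24th and 52nd, so that Evpl, among the highest in Null MEFs, was in the lower part of the class in DKO MEFs. At the other end of the order stood the imprinted noncoding RNA H19 (1.20 ± 0.40, adjusted p = 0.0122), Vwa7 (0.79 ± 0.31, adjusted p = 0.0301), the hyaluronan synthase gene Has3 (0.51, adjusted p = 0.107), the junctophilin gene Jph2 (-0.15, adjusted p = 0.654) and, as the 1 gene that fell, the keratin gene Krt7 (-1.35 ± 0.15, adjusted p = 3.94e-07). Beside Has3 and Jph2, the genes not past the threshold were Nptx1 (adjusted p = 0.0761) and Ano3 (adjusted p = 0.0764), named after their values were seen. Krt7 and Jph2 resemble Rasl11a in that their untreated DKO means, 5.44 and 0.874 CPM, were above their untreated Null means of 0.560 and 0.0493 CPM.

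**Figure D3:**
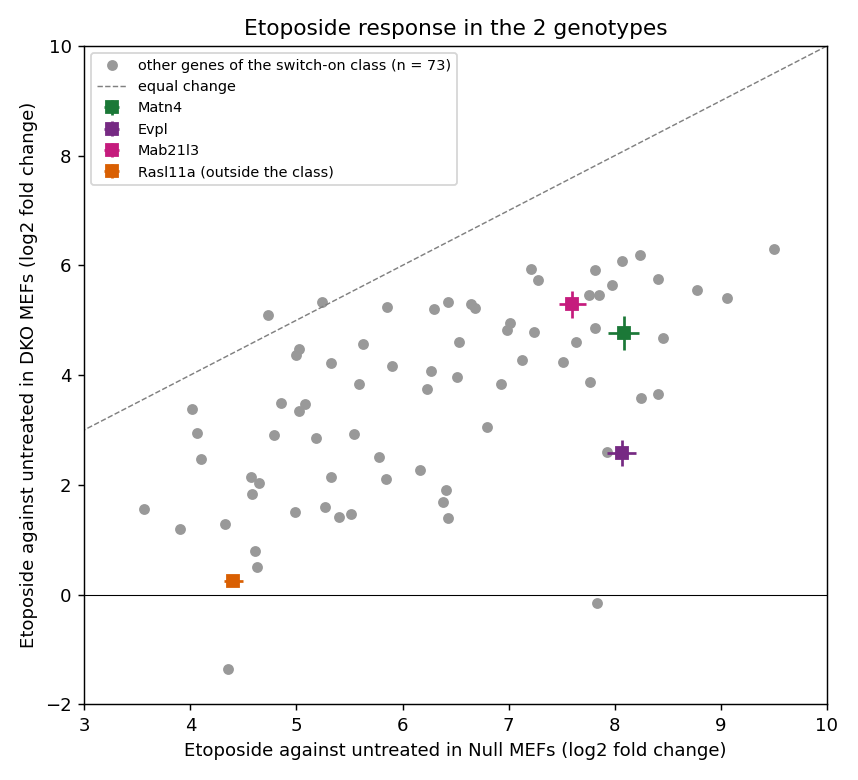
Log2 fold change with etoposide in Null MEFs (horizontal) and DKO MEFs (vertical) for the 76 genes of the switch-on class and Rasl11a, with the standard error as bars for the 4 genes and a dashed line at equal change. Mab21l3 (7.60, 5.29) and Matn4 (8.09, 4.76) lie among the strongly rising genes of both genotypes, Evpl (8.06, 2.58) lower and Rasl11a (4.41, 0.24) near 0 on the DKO axis.

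After etoposide, all 76 class genes had a lower mean in DKO than in Null MEFs, which their choice on a high treated Null level favours. As a percentage of the Null mean, the DKO mean ran from 0.822% for Ano3 to 41.3% for Col9a3, with a median of 10.9%. Mab21l3 at 5.82% ranked 60th, Matn4 at 3.88% ranked 65th and Evpl at 2.45% ranked 68th from the highest share, so that all 3 lie in the lower part of the class. In treated DKO MEFs 4 of the 76 genes reached 10 CPM and 20 were below 1 CPM. The same limits applied to DKO MEFs gave 5 genes, 1700007K13Rik, Ddit4l, Kcnj4, Sp6 and Tnfrsf18, of which 4 are in the class of Null MEFs (80.0% of the 5 and 5.26% of the 76). This count depends on the limits too, with 0 genes at 0.5 and 20 CPM, 56 at 2 and 5 CPM and 8 with library size alone. The exception is Kcnj4, at 1.41 CPM in untreated Null MEFs. None of the 4 members is among these 5.

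**Figure D4:**
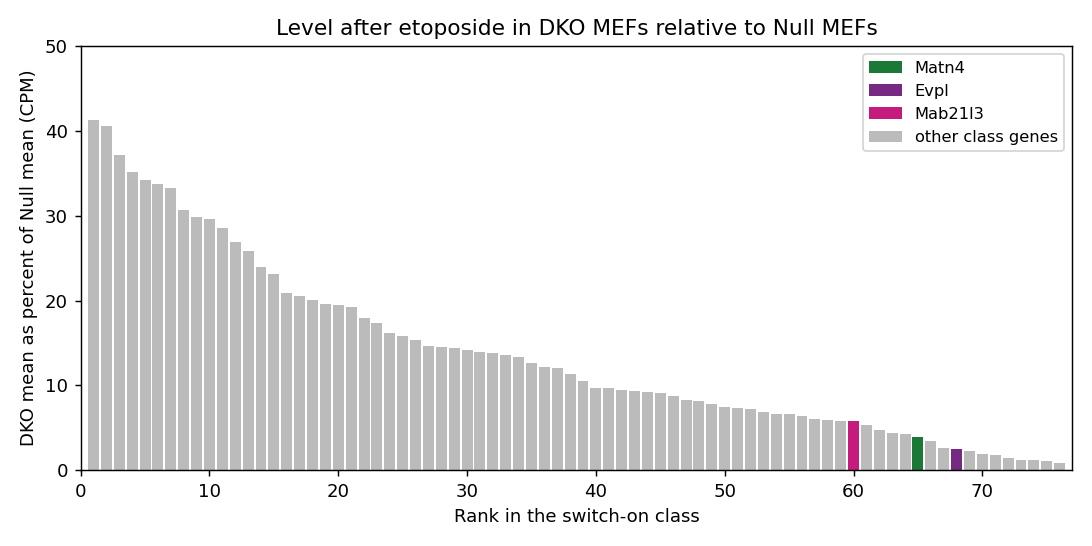
Mean CPM in treated DKO MEFs as a percentage of that in treated Null MEFs, for the 76 genes of the switch-on class in descending order. The bars run from 41.3% to 0.822%, and the 3 members of the class lie at the ranks 60, 65 and 68.

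The families of the 4 genes were followed gene by gene. Counts of higher and lower genes in a list stand beside 42.3% and 37.2% of all genes tested in Null MEFs and 43.7% and 31.5% in DKO MEFs. Of the other 3 matrilins, Matn1, a matrilin of cartilage, was at 0.0205 CPM in untreated and 2.59 ± 0.272 CPM in treated Null MEFs, and had no read in untreated DKO MEFs and 0.550 ± 0.316 CPM in treated ones. It was higher in both genotypes (adjusted p = 2.61e-09 in Null and 7.02e-05 in DKO MEFs). Matn2 was the abundant matrilin of untreated cells, at 30.2 ± 0.643 CPM in Null and 45.8 ± 1.57 CPM in DKO MEFs, and was lower with etoposide in both (log2 fold change -0.35 ± 0.046, adjusted p = 1.65e-06, and -0.53 ± 0.044, adjusted p = 8.06e-09). Matn3 stood at 1.33 and 1.32 CPM in untreated and treated Null MEFs (adjusted p = 0.966) and was lower in treated DKO MEFs (-0.67 ± 0.10, adjusted p = 1.5e-05). The median of these 3 was 0.01 in Null MEFs beside 0.07 for all genes, and -0.53 in DKO MEFs beside 0.14, so that Matn4 and the scarcer Matn1 rose while Matn2 and Matn3 did not.

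Of 11 matrix genes whose products bind matrilins or lie beside them, 9 were tested, with 5 higher and 3 lower in treated Null MEFs (median 0.92) and 2 higher and 4 lower in treated DKO MEFs (median -0.04, or 4 higher and 2 lower with library size alone). The cartilage collagen genes Col2a1 and Col9a3 were higher in both genotypes. Col2a1 went from 10.8 ± 0.836 to 44.7 ± 1.39 CPM in Null MEFs (2.05 ± 0.083, adjusted p = 2.06e-13) and from 0.385 ± 0.15 to 1.82 ± 0.423 CPM in DKO MEFs (2.09 ± 0.24, adjusted p = 5.38e-07). Col9a3, which is in the switch-on class, went from 0.337 to 11 CPM in Null and from 0.427 to 4.55 CPM in DKO MEFs (3.34 ± 0.17, adjusted p = 5.71e-12). Versican, encoded by Vcan, rose from 143 ± 4.65 to 406 ± 25.6 CPM in Null MEFs (1.5 ± 0.059, adjusted p = 1.37e-13) and was at 13.2 and 13.0 CPM in DKO MEFs (-0.04, adjusted p = 0.67, or 0.24 with library size alone, adjusted p = 0.0121 in a range of 0.0121 to 0.996). Col9a2 rose in Null MEFs (4.11 ± 0.53, adjusted p = 5.76e-07) at a low level of 0.519 CPM (5.07 without replicate 3 and 3.69 without replicate 1 of the untreated Null libraries), with 0.03 in DKO MEFs (adjusted p = 0.911), and Comp rose in Null MEFs (0.92 ± 0.34, adjusted p = 0.0191). Fibronectin (Fn1), with -0.82 in Null and -0.81 in DKO MEFs, and aggrecan (Acan), with -0.69 and -0.65, were lower in both. The proteoglycan gene Bgn was lower in both too, at -0.15 and -0.34, although its sign in Null MEFs turned with library size alone, and Dcn was lower in DKO MEFs (-0.48 ± 0.17, adjusted p = 0.016). With library size alone only 2 genes were lower in DKO MEFs, so not all of these DKO falls stayed past the threshold. Col9a1 and Hapln1 did not pass the filter.

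Of the 6 other plakins 5 were lower and 1 was higher in each genotype, with a median log2 fold change of -0.61 in Null and -0.99 in DKO MEFs. Periplakin (Ppl), the partner of envoplakin, was at 12.4 ± 0.204 CPM in untreated and 10.6 ± 0.764 CPM in treated Null MEFs (-0.22 ± 0.090, adjusted p = 0.0342) and fell in DKO MEFs from 4.41 ± 0.105 to 1.95 ± 0.516 CPM (-1.19 ± 0.14, adjusted p = 7.6e-07). The Null call of Ppl was lost under 12 of 17 alternatives (adjusted p from 0.0157 to 0.604), also without replicate 2 or 3 of the untreated (0.0584 and 0.0514) or replicate 2 or 3 of the treated Null libraries (0.106 and 0.0732). The only plakin other than Evpl that rose was desmoplakin (Dsp), which anchors keratin to desmosomes, from 4.0 ± 0.689 to 12.7 ± 0.845 CPM in Null (1.66 ± 0.12, adjusted p = 7.64e-10) and from 0.0998 to 0.473 CPM in DKO MEFs (2.19 ± 0.50, adjusted p = 0.000827, or 2.94 without replicate 2 and 1.93 without replicate 3 of the untreated DKO libraries). Plectin (Plec) fell by 0.51 in Null and by 1.12 in DKO MEFs, epiplakin (Eppk1) by 0.94 and 1.32, and the cytoskeletal linkers Dst and Macf1 by 1.03 and 0.72 in Null and by 0.86 and 0.80 in DKO MEFs.

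Cornified envelope genes, the other components of the structure envoplakin is known from, were mostly at or near 0. Of 16 genes 15 were in the table and 8 were tested, with 5 higher in Null MEFs, 3 higher in DKO MEFs and none lower (median 1.09 and 0.99). Of the 8, 2 in Null and 4 in DKO MEFs had a group at 3 reads or fewer in every library. Genes near 0 without the drug had almost no room to be called lower, so these counts are a description. Involucrin (Ivl) was at 0.00512 CPM in untreated and 0.428 ± 0.0843 CPM in treated Null MEFs and was not detected in DKO MEFs with or without the drug, where not detected means 3 reads or fewer in each library. The transglutaminase gene Tgm1 was at 0.189 and 0.517 CPM in Null MEFs (adjusted p = 0.00165) and past the threshold in DKO MEFs with library size alone only (adjusted p = 0.0396, in a range of 0.0396 to 0.511), and Tgm3 at 0.161 and 0.195 CPM in treated Null and DKO MEFs. Cst6, a cysteine protease inhibitor of the epidermis, rose from 1.25 to 3.44 CPM in Null (1.46 ± 0.18, adjusted p = 9.55e-07) and from 0.692 to 1.87 CPM in DKO MEFs (1.38 ± 0.23, adjusted p = 4.17e-05). Krt10, named after its values were seen, was the remaining gene higher in both (0.58 ± 0.24 and 0.97 ± 0.22). Loricrin (Lor) was at 0.159 and 0.107 CPM in untreated and treated Null MEFs (adjusted p = 0.369).

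Of 12 desmosome genes 8 were tested, with 5 higher and 2 lower in Null MEFs (median 0.72) and 2 higher and 4 lower in DKO MEFs (median -0.20). Perp, a desmosomal membrane protein that is also a p53 target, rose from 48.6 ± 0.796 to 531 ± 18.2 CPM in Null (3.45 ± 0.044, adjusted p = 1.59e-19) and from 26.6 ± 1.46 to 102 ± 3.88 CPM in DKO MEFs (1.94 ± 0.044, adjusted p = 1.26e-16). The plakophilin gene Pkp3 rose from 2.52 to 10.9 CPM in Null MEFs (2.11 ± 0.11, adjusted p = 8.03e-12) and was at 8.60 ± 0.548 and 8.96 ± 1.23 CPM in DKO MEFs (adjusted p = 0.793, or 0.00803 as a rise with library size alone, in a range of 0.00803 to 0.977), which like Rasl11a had a raised untreated DKO level. Plakoglobin (Jup) and Pkp1 were higher in Null (1.03 and 0.31) and lower in DKO MEFs (-0.92 and -0.65), and Pkp2 and Pkp4 were lower in both (-0.86 and -1.60 in Null, -1.46 and -0.43 in DKO MEFs). Dsc1 had no read without the drug and was at 0.239 ± 0.0565 and 0.0581 ± 0.0438 CPM with it, its DKO call (adjusted p = 0.0203) being lost without replicate 2 of the untreated or replicate 1 or 3 of the treated DKO libraries (adjusted p = 0.0641, 0.0586 and 0.0609, with a range of 0.00563 to 0.0641 over its alternatives). Dsc2 was past the threshold in neither genotype, and Dsg1a, Dsg2, Dsg3 and Dsc3 did not pass the filter.

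The MAB21 family list had 12 genes, of which 10 were in the table and 8 other than Mab21l3 were tested. In Null MEFs 3 were higher and 4 lower (median -0.08), and in DKO MEFs 2 were higher and 4 lower (median -0.07). With library size alone 3 were higher in each genotype, 3 were lower in Null and 2 lower in DKO MEFs. Mab21l1, a regulator of eye and neural development, rose from 14.4 ± 0.428 to 40.4 ± 3.33 CPM in Null MEFs (1.49 ± 0.068, adjusted p = 1.1e-12) and was at 0.147 and 0.159 CPM in DKO MEFs (adjusted p = 0.92). Its relative Mab21l2 rose little in Null MEFs, from 16.4 to 20.3 CPM (0.31 ± 0.071, adjusted p = 0.000605), and was at 0.0627 and 0.104 CPM in DKO MEFs. All 3 MAB21-like genes in the table were thus far lower in treated DKO than in treated Null MEFs, but Mab21l1 and Mab21l2 were so without the drug as well. Itprip was lower in both genotypes (-0.39 ± 0.036 and -1.20 ± 0.037), as was Mb21d2 (-0.91 ± 0.055 and -0.21 ± 0.055), whose DKO value became 0.06 with library size alone. Mief1 was lower in both, at -0.41 and -0.19, the DKO sign turning with library size alone, while Itpripl2 was higher in Null (0.11 ± 0.034) and lower in DKO MEFs (-0.66 ± 0.034). Itpripl1 was lower in Null (-0.10, a sign that turned with library size alone) and higher in DKO MEFs (0.13), and Mief2 was higher in DKO MEFs (0.26). Mab21l4 and the cGAS gene are not in the table under these symbols, and Tmem102 did not pass the filter.

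Of 18 RAS-like small GTPase genes 13 other than Rasl11a were tested, with 8 higher and 2 lower in Null MEFs (median 0.53) and 4 higher and 4 lower in DKO MEFs (median 0.24). With library size alone these were 8 and 1 in Null and 6 and 3 in DKO MEFs. Rasl11b, the closest relative of Rasl11a in the list, rose from 0.446 ± 0.196 to 7.32 ± 0.813 CPM in Null (4.0 ± 0.19, adjusted p = 2.09e-12) and from 1.12 ± 0.104 to 2.28 ± 0.224 CPM in DKO MEFs (1.01 ± 0.20, adjusted p = 0.000204). Rasd2 was at 0.00410 CPM in untreated and 4.02 ± 0.0397 CPM in treated Null MEFs, with no read in untreated and 0.266 ± 0.0712 CPM in treated DKO MEFs. Rasd1, induced by glucocorticoids, rose from 0.261 to 3.10 CPM in Null MEFs (3.54 ± 0.25, adjusted p = 4.52e-10) and was at 0.207 and 0.361 CPM in DKO MEFs (adjusted p = 0.15, or 0.0462 with library size alone, in a range of 0.0462 to 0.411). Rrad fell in both, from 52.3 to 18.4 CPM in Null (-1.50 ± 0.082, adjusted p = 1.22e-11) and from 13.3 to 3.34 CPM in DKO MEFs (-2.03 ± 0.11, adjusted p = 3.22e-11). The other genes that changed in DKO MEFs, named after their values were seen, were Rasl10b and Nkiras2 (higher) and Rem2, Gem and Diras2 (lower).

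RNA polymerase I genes, the machinery with which Rasl11a has been linked, were all measured. Of 15 genes 5 were higher and 10 lower in treated Null MEFs (median -0.43), and 7 were higher and 5 lower in treated DKO MEFs (median 0.07, or 10 higher and 2 lower with library size alone). Cd3eap, a polymerase I subunit gene, had the largest change in Null MEFs, from 91.3 ± 3.10 to 36.2 ± 1.39 CPM in Null (-1.33 ± 0.045, adjusted p = 1.45e-14) and from 79.2 ± 0.708 to 54.1 ± 2.94 CPM in DKO MEFs (-0.55 ± 0.044, adjusted p = 4.02e-09). The gene of the second-largest subunit, Polr1b, fell in Null MEFs from 119 to 57.3 CPM (-1.06 ± 0.041, adjusted p = 1.2e-13) and was at 80.8 and 88.6 CPM in DKO MEFs (0.13 ± 0.041, adjusted p = 0.00788). That DKO call was lost with no filter (adjusted p = 0.0716), without replicate 1 of the untreated (adjusted p = 0.119) and without replicate 2 of the treated DKO libraries (adjusted p = 0.0586), in a range of 7.22e-08 to 0.119 over its alternatives. The termination factor gene Ttf1 was higher in both, by 1.17 ± 0.052 in Null and 0.48 ± 0.052 in DKO MEFs. Ubtf, which encodes the upstream binding factor of ribosomal DNA, was lower in both, with -0.81 ± 0.030 (adjusted p = 6e-14) and -0.28 ± 0.030 (adjusted p = 2.6e-07), and the DKO call was lost with library size alone (adjusted p = 0.968, in a range of 5.31e-24 to 0.968 over its alternatives).

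Known p53 target genes were read out beside the 4 genes. Of 32 such genes 30 were higher and 2 lower in treated Null MEFs, with a median log2 fold change of 2.17 beside 0.07 for all genes. In DKO MEFs 26 were higher, 5 lower and 1 not past the threshold, with a median of 0.78 beside 0.14. With library size alone 27 were higher, 4 lower and 1 not past it in DKO MEFs, and 30, 1 and 1 in Null MEFs. Trp53inp1 rose from 11.6 ± 1.19 to 679 ± 23.7 CPM in Null (5.87 ± 0.085, adjusted p = 5.8e-19) and from 9.70 ± 1.53 to 251 ± 13.0 CPM in DKO MEFs (4.70 ± 0.083, adjusted p = 5.51e-18). Cyclin G1 (Ccng1) rose by 4.18 ± 0.040 in Null and 2.27 ± 0.037 in DKO MEFs, Psrc1 by 4.27 ± 0.085 and 2.90 ± 0.10, and the costimulatory molecule gene Cd80 by 4.73 ± 0.18 and 5.10 ± 0.28. The order of the genotypes for Cd80 rests on the untreated DKO libraries, since its DKO value was 4.43 without replicate 2 and 6.17 without replicate 3 of that group. With TMM scaling, the 1 gene not past the threshold in DKO MEFs was Pmaip1 (adjusted p = 0.894). The genes lower in DKO MEFs with this scaling, named after their values were seen, were Sesn2 (-0.27), Fas (-0.88), Plk2 (-0.69), Plk3 (-0.67) and Steap3 (-0.56). Fas and Steap3, like Rasl11a, were higher in untreated DKO than in untreated Null MEFs, at 40.7 against 19.6 CPM and at 48.0 against 6.82 CPM. In treated MEFs 30 of the 32 genes were lower in DKO than in Null (36.6% of all genes), and 23 had a lower change with etoposide in DKO than in Null MEFs (24.4% of all genes).

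Since envoplakin and matrilins are known from epidermis and cartilage, markers of cell types were summed in each library. The 11 fibroblast markers, led by Vim (by Col1a1 in treated DKO MEFs), summed to 5392 to 5559 CPM in untreated Null, 9111 to 9404 CPM in untreated DKO, 3052 to 3089 CPM in treated Null and 3695 to 3843 CPM in treated DKO MEFs, and none was undetected. With etoposide 8 of them were lower and 1 higher in Null MEFs and 10 were lower in DKO MEFs. The 13 epithelial or keratinocyte markers, led by Krt19, summed to 16.6 to 17.9 CPM in untreated and 25.7 to 29.1 CPM in treated Null MEFs, and to 59.0 to 60.4 CPM in untreated and 19.9 to 20.8 CPM in treated DKO MEFs. Of the untreated DKO sum, Krt19 was 31.3 CPM and the epithelial transcription factor gene Trp63 was 23.0 CPM. The keratin genes Krt5 and Krt14, which define basal keratinocytes, were at 0 or 0.00410 CPM in untreated Null MEFs and at 0.797 ± 0.109 and 0.476 ± 0.127 CPM in treated Null MEFs, where Cldn7 was at 0. Of the 10 tested, 6 were higher and 2 lower in Null and 6 higher and 3 lower in DKO MEFs. Among these 10, 3 in Null and 5 in DKO MEFs had a group at 3 reads or fewer in every library. Those near 0 without the drug had almost no room to be called lower, so the counts are a description.

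The chondrocyte list had 9 genes with 8 in the table, 6 of the 9 also being in the matrix or matrilin lists, and Sox9 was its most abundant gene in untreated Null MEFs. It summed to 50.9 to 53.5 CPM in untreated and 70.9 to 77.4 CPM in treated Null MEFs, and to 35.5 to 37.0 CPM in untreated and 21.3 to 25.1 CPM in treated DKO MEFs. In Null MEFs Col2a1 rose by more than the sum did, while Sox9, the transcription factor that defines the lineage, fell from 29.3 to 14.8 CPM (-0.98 ± 0.072, adjusted p = 7.57e-10), and Col9a1 and Hapln1 were at 0 without the drug. Of 6 tested, 3 were higher and 2 lower in Null and 3 higher and 3 lower in DKO MEFs.

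The sums of the leukocyte, skeletal muscle and endothelial markers were higher with etoposide, and the sum of the neural markers was lower, by little in Null MEFs. The 5 leukocyte markers, led by Cd14, summed to 16.1 to 19.3 CPM in untreated and 77.2 to 77.8 CPM in treated Null MEFs and to 7.50 to 9.31 and 12 to 14.6 CPM in DKO MEFs, with 4 of 4 tested higher in Null and 3 of 4 in DKO MEFs. The pan-leukocyte gene Ptprc reached 0.366 CPM and the macrophage gene Adgre1 0.0292 CPM in treated Null MEFs. The 5 skeletal muscle markers, led by Des, summed to 2.03 to 2.24 CPM in untreated and 34.3 to 39.2 CPM in treated Null MEFs and to 0.316 to 0.489 and 2.66 to 2.82 CPM in DKO MEFs, with 3 of 3 tested higher in each genotype and Myod1 and Myog at 0 without the drug. The 5 endothelial markers, led by Tek over all libraries, stayed at or below 3.09 CPM in every library (4 of 4 tested higher in each genotype), and the 5 neural markers were not lacking in untreated MEFs, with Map2 or Tubb3 as their largest share. They summed to 97.4 to 100.2 CPM in untreated and 92.1 to 97.2 CPM in treated Null MEFs and to 104.3 to 110.7 and 71.2 to 76.3 CPM in DKO MEFs (2 of 4 tested higher and 1 lower in Null, 3 higher and 1 lower in DKO MEFs). Without Map2 the neural sums were higher with etoposide. In Null MEFs they were 53.5 to 57.2 CPM without and 59.7 to 65.8 CPM with the drug. In DKO MEFs they were 14.4 to 16.4 CPM without and 29.3 to 31.7 CPM with it. Tested markers near 0 without the drug had almost no room to be called lower, so the counts called higher are a description. In Null MEFs 1 of 3 muscle, 2 of 4 endothelial and 1 of 4 leukocyte markers had a group at 3 reads or fewer in every library. In DKO MEFs these were 2 of 3, 1 of 4 and 1 of 4. Dcn, Dsg3 and Perp are each in 2 of the lists used here. What part cells of other types had in the rise of the 4 genes was not tested.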

How the data were processed

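RNA-seq was done on stranded, ribosomal RNA-depleted libraries of 12 MEF samples, sequenced as pairs. The authors deposited 1 table of raw counts per gene, which are whole read pair counts without normalization. By the study's methods reads were checked with FastQC, trimmed with Cutadapt where required, aligned with HISAT2 and counted with HTSeq, whereas the submitters' notes list featureCounts; no versions and no strand setting are given. Lines that name no gene held 36.9 to 46.6% of a library's counts and were left out. Of 24421 genes (2 symbols repeated), filterByExpr kept 15220. They were scaled by TMM (factors 0.884 to 1.09) and fitted in R 4.3.3 with glmQLFit of edgeR 4.0.16 in 1 model of 4 groups of 3 libraries, and contrasts were tested by glmQLFTest, with Benjamini-Hochberg adjustment over all genes and a threshold of 0.05. The form of the quasi-likelihood fit was settled after gene counts under several forms had been seen, and 3 legacy forms were added as alternatives after seeing the data. The fits were also run on simulated data, whose outcome is not given here, so no conclusion is drawn from that step.

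The 5 comparisons were etoposide against untreated in each genotype, DKO against Null MEFs without and with etoposide, and their interaction. For the 4 members only etoposide in DKO MEFs was tested. A gene at 3 counts or fewer in every library of a group was taken as not detected, a floor that covers counting error only. Replicates differed by more than sampling noise (between libraries of a group, chi-square divided by its degrees of freedom was 10.8 to 22.6), and p-values measure only this spread, which may be technical.

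Alternatives were DESeq2 1.42.0, limma-trend (limma 3.58.1) with robust estimates, DESeq2's size factors, library size alone, no filter, a mean of at least 1 CPM, the replicate number as a block, the 6 libraries of a comparison alone, each library left out in turn, other limits of the class and other measures of likeness. Genes were named by a rule: the 4 members, the 3 genes most like each, the 2 nearest genes on each side and overlapping ones, the class genes with the 10 largest Null rises and the 5 largest and 5 smallest DKO rises, up to 4 genes with the largest change per list, all genes of lists of 12 or fewer, and Tfeb and Tfe3. The lists are matrilins, matrix partners, plakins, cornified envelope, desmosome, MAB21 family, RAS-like GTPases, RNA polymerase I, p53 targets and markers of 7 cell types. The members, lists and class limits were chosen with earlier results of these data known.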

Additional observations from a re-analysis of the deposited data

Results flagged for a closer look

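Of the neighbours, up to 4 genes of each family, p53 and polymerase I list named for their large change, and Tfeb and Tfe3, 31 genes had a change with etoposide that differed between the genotypes by the tested interaction of edgeR's model. Of all genes 54% passed its threshold, 29.6% as higher and 24.4% as lower in DKO MEFs. The list genes were named for a large change with etoposide in either genotype, and the interaction is the difference of these changes. Their number and adjusted p are therefore a description, and no enrichment was tested. The lists as wholes are counted below, and more of their genes passed than are named. Values are the log2 change in DKO minus that in Null MEFs, with the adjusted p. Around the 4 genes these were Slpi (-0.822, adjusted p = 0.0248), Sdc4 (-0.476, 1.51e-07), Sys1 (0.221, 0.00921), Ten1 (0.449, 0.00095) and Gtf3a (-1.002, 2.39e-10). Of 3 matrilins 2 were lower and of 9 matrix genes 3, namely Matn3 (-0.682, 0.00715), Matn2 (-0.172, 0.0304), Col9a3 (-1.687, 2e-04), Col9a2 (-4.08, 1.2e-05) and Vcan (-1.539, 5.1e-10). Of 6 plakins 2 were lower, of 8 cornified envelope genes none passed, and of 8 desmosome genes 1 was higher and 5 lower. Those named are Ppl (-0.965, 0.000106), Plec (-0.613, 8.1e-06), Perp (-1.51, 1.41e-12), Pkp3 (-2.085, 2.4e-09) and Pkp4 (1.171, 2.32e-12). In the MAB21 family 4 of 8 were higher and 3 lower, among them Mab21l1 (-1.432, 0.0175), Itprip (-0.805, 5.55e-10), Mb21d2 (0.69, 7.87e-07) and Itpripl2 (-0.771, 5.36e-10), and of 13 RAS-like GTPases 6 were lower, among them Rasl11b (-2.985, 3.52e-07), Rasd1 (-2.848, 0.000373) and Rrad (-0.53, 0.00478). Of 15 RNA polymerase I genes 8 were higher and 1 lower, among them Cd3eap (0.785, 1.03e-08), Ttf1 (-0.692, 3.73e-07), Polr1b (1.19, 2.15e-11) and Ubtf (0.535, 1.01e-08). Of 32 p53 targets 2 were higher and 23 lower, among them Trp53inp1 (-1.172, 1.04e-07), Psrc1 (-1.378, 2.94e-07) and Ccng1 (-1.912, 1.37e-14). The label genes were Tfeb (0.486, 0.0194) and Tfe3 (0.279, 0.000697). The interactions of the genes named here were not followed under the alternatives. Library size alone moved the median interaction of all genes by 0.10, so small values such as that of Matn2 may depend on the scaling.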

How the results depend on the processing

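In DKO MEFs the rise of each of the 4 genes with etoposide kept its direction and stayed past the threshold under all 17 alternatives, with log2 fold changes of 4.18 to 5.35 for Matn4 (adjusted p from 2.36e-36 to 9.12e-08), 2.45 to 2.85 for Evpl (1.17e-21 to 5e-06), 4.95 to 5.56 for Mab21l3 (3.41e-58 to 4.28e-07) and 0.19 to 0.52 for Rasl11a (1.95e-06 to 0.0274). The low reads of untreated libraries limit the folds: leaving out 1 library in turn gave -3.889 to -2.725 for the Matn4 interaction (without replicates 2 and 1 of the DKO controls) and 7.341 to 8.054 for Mab21l3 in Null MEFs (8.054 without replicate 1 of the Null controls). With library size alone Rasl11a rose by 4.574 in Null MEFs, and in DKO MEFs Sys1 (0.193), Ten1 (0.256), Srp68 (0.181), Vcan (0.236) and Mb21d2 (0.059) changed sign, where the scaling moved the median of all genes by 0.27. The class held 18 genes with limits of 0.5 and 20 CPM, 251 with limits of 2 and 5 CPM and 86 with library size alone, and 68 to 74 of its 76 genes were higher in DKO MEFs. Calls ran from 9533 to 12320 genes for etoposide in DKO MEFs, 9855 to 13253 in Null MEFs, 9197 to 10370 and 9549 to 11350 between the genotypes without and with the drug, and 7654 to 8789 for the interaction, for which the 6-library alternative was not made. The replicate numbers were not taken as pairs: none of the 18 same-numbered pairs correlated above 0.1 (-0.03 to 0.04, other pairs -0.05 to 0.05), although 9 of 12 libraries correlated best with their own number, a hint from the data and not the design. With the replicate block 11416 genes were called in DKO MEFs, with 0.24 for Rasl11a (adjusted p = 0.00563, in a range of 1.95e-06 to 0.0274). The changes with etoposide of the neighbours, of up to 4 genes per family list and of the label genes were followed under the alternatives too, some scarce genes having no value under part of them. The 5 sign changes above are those with a value past the threshold before or after, values near 0 that crossed it below the threshold not being counted. Apart from these 5, and counted as pairs of a result and an alternative, a call was lost 23 times and gained 12 times. A gene can thus count more than once. Ppl in Null MEFs made up 12 of these losses. With library size alone the called signs of Bgn and Itpripl1 in Null and of Mief1 and Taf1b in DKO MEFs turned too.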
